A study of Mus musculus with 6 samples.

Results

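Interleukin-6 (IL-6) family cytokines signal through a shared receptor chain, gp130, encoded by Il6st. The 10 genes described here, of 20071 Ensembl IDs in the count table, were taken by symbol: the ligands Il6, Il11, Lif, Osm and Clcf1, the receptor chains Il6st, Il6ra, Lifr and Osmr, and the feedback inhibitor Socs3. All 10 were in the table, each on 1 row. They were measured by poly(A) RNA-seq in mesenchymal stromal cells (MSCs), bone marrow cells able to become osteoblasts. The MSCs came from the femurs of 6-week-old C57BL/6J mice and were kept for 7 days in osteogenic medium, whose additions were dexamethasone at 100 nM, β-glycerophosphate at 5 mM and ascorbic acid at 50 μg/mL. The libraries called control here came from Pcif1fl/fl mice, which carry loxP sites around part of Pcif1 and no Cre. Those called knockout came from Prrx1-Cre;Pcif1fl/fl littermates, in which Cre is driven by a limb mesenchyme promoter, so that cells of other lineages in the culture keep Pcif1. PCIF1 is the enzyme that methylates an adenosine next to the mRNA cap, and the comparison asks what its loss changes in differentiating MSCs. Each genotype had 3 libraries, and it is not stated whether they were separate mice or cultures, so p-values measure the spread between these libraries.

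In this family, the ligands signal through gp130 together with further receptor chains, some of which several ligands share. IL-6 binds IL-6Rα (Il6ra), LIF binds the LIF receptor (Lifr), and mouse oncostatin M binds mainly the oncostatin M receptor (Osmr). Cardiotrophin-like cytokine (Clcf1) uses the CNTF receptor, Lifr and gp130. Activated gp130 signals through the kinases JAK1, JAK2 and TYK2, which phosphorylate STAT3, and STAT3 induces Socs3, whose product blocks gp130. In bone, these cytokines act on osteoblasts, on stromal cells and, through RANKL, on osteoclast formation.

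Total counts were between 20258209 and 28227696 per library. Pcif1 itself was at 39.3 to 42.8 CPM (counts scaled to the total of the library times its TMM factor) in control and 37.8 to 39.7 CPM in knockout libraries (log2 fold change -0.085, adjusted p = 0.645 from edgeR). The table has a single count per gene, so the deleted exons cannot be seen in it and this level does not check the labels. The libraries also differed in sex-linked RNA. Xist was at 232 to 443 CPM in control and at 0.722 to 1.79 CPM in knockout libraries, while the Y-linked Ddx3y was at 48.4 to 62.2 and 99.1 to 104 CPM, so that sex composition and genotype cannot be told apart. Control replicate 3 stood apart from the other libraries, with 3.63% of its counts from mitochondrial genes against 1.40% to 1.57%. The 10 mesenchymal markers together took 8844 to 11715 CPM in control and 15239 to 16060 CPM in knockout libraries, most of it from Col1a1, Col1a2 and Vim. These 3, Thy1 and Ly6a, 5 in all, were higher at an adjusted p under 0.05. Lower were 2, Pdgfra and Eng, with log2 fold changes of -0.42 and -1.11. That is 70.0% of the markers, against 7.40% of all genes. Without passing, Pdgfrb was lower and Nt5e higher in every knockout library, and Prrx1 overlapped. The part of these markers in the results was not tested. Of 6 osteoblast markers tested, Sp7, Alpl and Ibsp fell, by 3.69-fold, 2.15-fold and 2.37-fold, Runx2 was also lower in every knockout library without passing, and Spp1 and Dmp1 overlapped, with log2 fold changes of 0.43 and 0.48. The sum of the 7 osteoblast markers in the table, 10092 to 17230 and 12060 to 20292 CPM, came almost entirely from Spp1, and Bglap, the osteocalcin gene, had 1 to 5 counts. The part of these differences in the results was not tested. Endothelial markers took 27.9 to 43.3 CPM and lymphocyte markers at most 1.00 CPM in a library. The culture also held macrophage RNA: 12 macrophage markers together took 30118 to 33038 CPM in control and 30675 to 33844 CPM in knockout libraries, with 21981 to 26233 CPM in a library from Lyz2 alone. In bulk RNA, fewer cells of a type and less RNA per cell cannot be told apart.

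Promoter sequences from RefSeq on GRCm38.p6 were matched to 8 of the 10 members, with 10 start sites between them. Osm and Clcf1 are not among them. Because PCIF1 acts on an adenosine at the first transcribed position, these windows show where RefSeq places the start of transcription in the ligand gene and the receptor genes that the results turn on, with gp130 beside them. Each runs from 40 bases before the start through the first 10 transcribed bases, and the capital is the first transcribed base. They lie at chr11:4257528-4257577 (plus strand) for Lif, chr15:7129532-7129581 and chr15:7140502-7140551 (plus strand) for the starts of Lifr, chr15:6874304-6874353 (minus strand) for Osmr and chr13:112464030-112464079 (plus strand) for Il6st.
Lif: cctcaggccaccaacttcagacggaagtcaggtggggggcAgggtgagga
Lifr, first start: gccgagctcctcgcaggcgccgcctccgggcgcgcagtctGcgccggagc
Lifr, second start: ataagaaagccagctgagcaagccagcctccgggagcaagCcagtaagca
Osmr: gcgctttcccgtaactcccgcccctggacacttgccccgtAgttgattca
Il6st: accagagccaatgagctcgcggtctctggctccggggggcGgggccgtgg
Lif and Osmr have an adenosine at these RefSeq starts, and Lifr and Il6st do not. The GENCODE gene bounds given below begin upstream of these starts for Lif (4257557), Lifr (7090614) and Osmr (6874969, minus strand), and the base there was not examined. For Il6st both give 112464070. Of the 10 member starts, 4 have A, and 34.4% of all 32851 RefSeq starts do. Start sites and methylation were not measured in these libraries.

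The STAT-binding motif TTCNNNGAA, which reads the same on both strands, was found in 1 of the 10 member windows from 250 bases before to 50 after a start, against 8.30% of all windows. It lies in the Socs3 promoter, 154 bases before the start, in the stretch chr11:117969492-117969540 (minus strand), printed here with the motif in capitals because Socs3 is the classical STAT3 target of the pathway.
Socs3: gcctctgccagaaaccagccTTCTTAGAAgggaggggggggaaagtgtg
A match of letters does not show that STAT3 binds there.

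Of the 9 members with enough counts to be tested, 2 ligands, Lif and Osm, rose in the knockout cultures and 1 receptor, Lifr, fell, at an adjusted p under 0.05 (edgeR, quasi-likelihood test, Benjamini-Hochberg adjustment over 13733 genes). That is 33.3% of the members tested, and 7.40% of all genes tested passed (2.88% higher and 4.51% lower). Lif and Osm also changed at least 2-fold, the study's second threshold, which 3.53% of all genes met. The genotypes did not overlap in 5 of the 9 members (Lif, Osm, Il11, Lifr and Osmr) and in 30.8% of all genes. The median log2 fold change of the 9 members was 0.14, and that of all genes was 0.0017. The members and lists here were chosen with results of these libraries known, so these shares are descriptions.

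**Figure D1:**
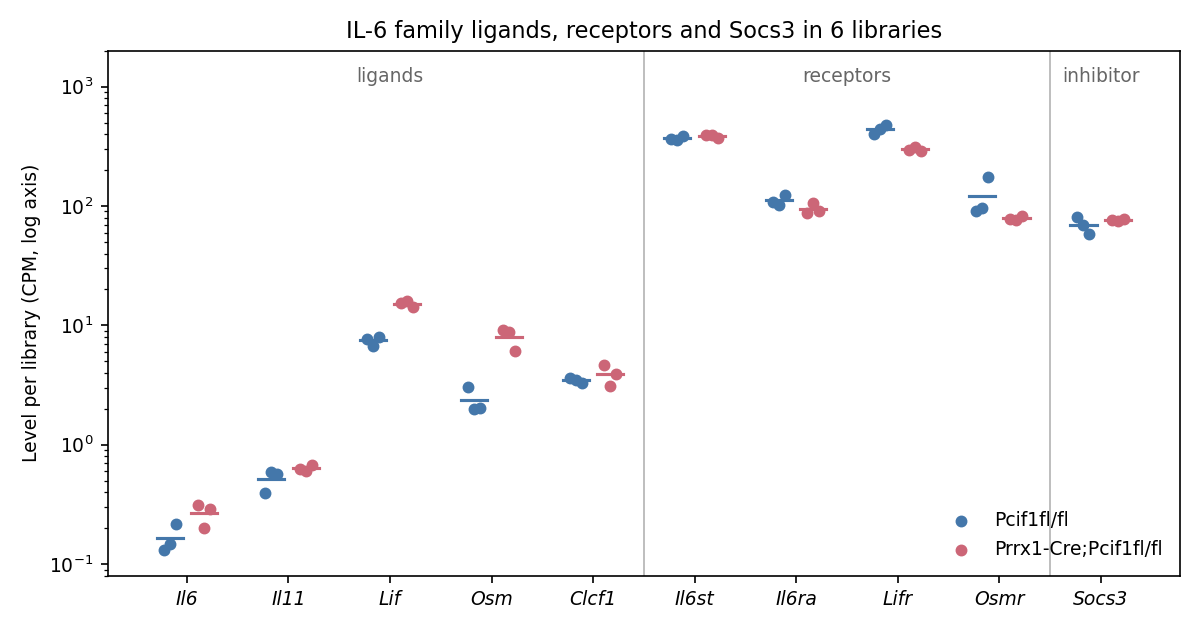
Level of each member in each library in CPM on a log axis, with bars at the mean of 3 libraries. Lif and Osm are higher and Lifr is lower in every knockout library, and the Osmr level of control replicate 3 lies at 176 CPM, above the other 5 libraries.

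Lif (ENSMUSG00000034394, chromosome 11, 4257557 to 4272514, plus strand) encodes leukemia inhibitory factor, which acts on osteoblasts and keeps stromal and stem cells undifferentiated in several settings. It was at 7.73, 6.69 and 8.03 CPM in control replicates 1 to 3 and at 15.4, 16.0 and 14.2 CPM in knockout replicates 1 to 3. Every knockout library was above every control library. The difference was 2.03-fold, or 1.02 ± 0.13 (SE) on the log2 scale with an adjusted p of 0.0027. Osm (ENSMUSG00000058755, chromosome 11, 4236420 to 4241026, plus strand) encodes oncostatin M, a cytokine made mainly by macrophages and other blood cells that acts on osteoblasts. Its level was 3.06, 1.98 and 2.04 CPM in control libraries and 9.09, 8.81 and 6.11 CPM in knockout libraries. The groups did not overlap, although the knockout libraries spread more than those of the controls. Osm rose 3.41-fold, or 1.77 ± 0.24 (SE) on the log2 scale with an adjusted p of 0.00323, the largest difference among the 9 members tested. Of the 12 macrophage markers, 1 passed, or 8.33%, close to the 7.40% of all genes. It was the Fc receptor gene Fcgr1, which rose from 32.6 to 42.9 CPM in control to 59.4 to 74.1 CPM in knockout libraries. Itgam, Cd14 and Adgre1 were also higher in every knockout library (log2 fold changes 0.45, 0.67 and 0.24, adjusted p = 0.0645, 0.0718 and 0.398), Csf1r was lower in every one (-0.26, adjusted p = 0.141), and the other 7 overlapped. Thus 5 of the 12 did not overlap, and 30.8% of all genes did not. Markers of other blood cells were scarce. Neutrophil markers (5 of 8 in the table) summed to 1.00 to 1.14 CPM in control and 1.30 to 1.98 CPM in knockout libraries, and the higher sum came from S100a8, at 2.74-fold higher (adjusted p = 0.0394), a call lost under 7 of 14 alternative settings. The other neutrophil marker tested, Camp, had a log2 fold change of -0.59 and its groups overlapped. Mast cell markers (4 of 5 in the table) summed to 2.40 to 3.84 and 0.398 to 1.13 CPM, nearly all of it Kit, which was 3.86-fold lower (adjusted p = 0.0171), a call lost without knockout replicate 2 or 3 (adjusted p = 0.0502 and 0.0634), while the other 3 had 0 to 2 counts in a library. The part of these cells and of macrophages in the Osm result was not tested.

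The other ligand genes did not pass the test. Clcf1, the cardiotrophin-like cytokine, was at 3.63, 3.49 and 3.30 CPM in control and 4.64, 3.14 and 3.90 CPM in knockout libraries, and the groups overlapped. Its log2 fold change was 0.17 with a 95% interval from -0.28 to 0.61, and 8.17% of its exonic bases overlap another gene on the same strand. Il11, a cytokine that acts on osteoblasts and osteoclasts, had 9 to 16 counts in a library and was at 0.393, 0.588 and 0.574 CPM in control and 0.630, 0.597 and 0.674 CPM in knockout libraries. The groups did not overlap, but they lay close together, and the interval of its log2 fold change, 0.28, ran from -0.49 to 1.04. Il6, the founding member of the family, had 3, 4 and 6 counts in control and 7, 4 and 6 in knockout libraries, and fell under the expression filter. Without that filter its adjusted p was 0.667 with edgeR and 0.757 with DESeq2, so that no difference in Il6 was detected, and the size of change that such counts could show was not tested.

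Among the receptors, Lifr fell and Il6st did not pass the test. Lifr (ENSMUSG00000054263, chromosome 15, 7090614 to 7197489, plus strand), the receptor chain of LIF, was at 404, 443 and 479 CPM in control and at 293, 314 and 292 CPM in knockout libraries. Every knockout library was below every control library. The difference was 1.48-fold, or -0.56 ± 0.095 (SE) on the log2 scale with an adjusted p of 0.00939. The call was lost without knockout replicate 1 or 3, where the log2 fold change stayed at -0.54 and the adjusted p rose to 0.0760 and 0.0746. Il6st (chromosome 13, 112464070 to 112510086), the gp130 chain, was at 364, 358 and 383 CPM in control and 391, 396 and 371 CPM in knockout libraries. The groups overlapped, and the 95% interval of its log2 fold change ran from -0.12 to 0.26 (adjusted p = 0.690).

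Osmr (chromosome 15, 6813577 to 6874969), the receptor chain of oncostatin M, was at 91.6, 96.8 and 176 CPM in control and 77.8, 76.8 and 83.3 CPM in knockout libraries. The groups did not overlap, but 1 control library, replicate 3, was far above the other two. The log2 fold change was -0.61 ± 0.23 (SE) with an adjusted p of 0.167, with a 95% interval for that gene alone from -1.14 to -0.086. Without control replicate 3, the library with the high mitochondrial share, the log2 fold change was -0.25 and passed (adjusted p = 0.0201). Under that setting 21.5% of all genes passed. Il6ra (chromosome 3, 89864059 to 89913196), the IL-6 binding chain, was at 109, 102 and 124 CPM in control and 87.0, 107 and 91.0 CPM in knockout libraries. The groups overlapped and the log2 fold change was -0.23 (interval from -0.49 to 0.032, adjusted p = 0.299 from edgeR).

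Socs3 (chromosome 11, 117966079 to 117970047), the inhibitor that gp130 signaling induces, was at 80.6, 69.7 and 58.2 CPM in control and 76.1, 75.0 and 78.6 CPM in knockout libraries. The knockout libraries lay within the range of the controls. Its log2 fold change was 0.14 ± 0.12 (SE, interval from -0.14 to 0.42) with an adjusted p of 0.571.

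**Figure D2:**
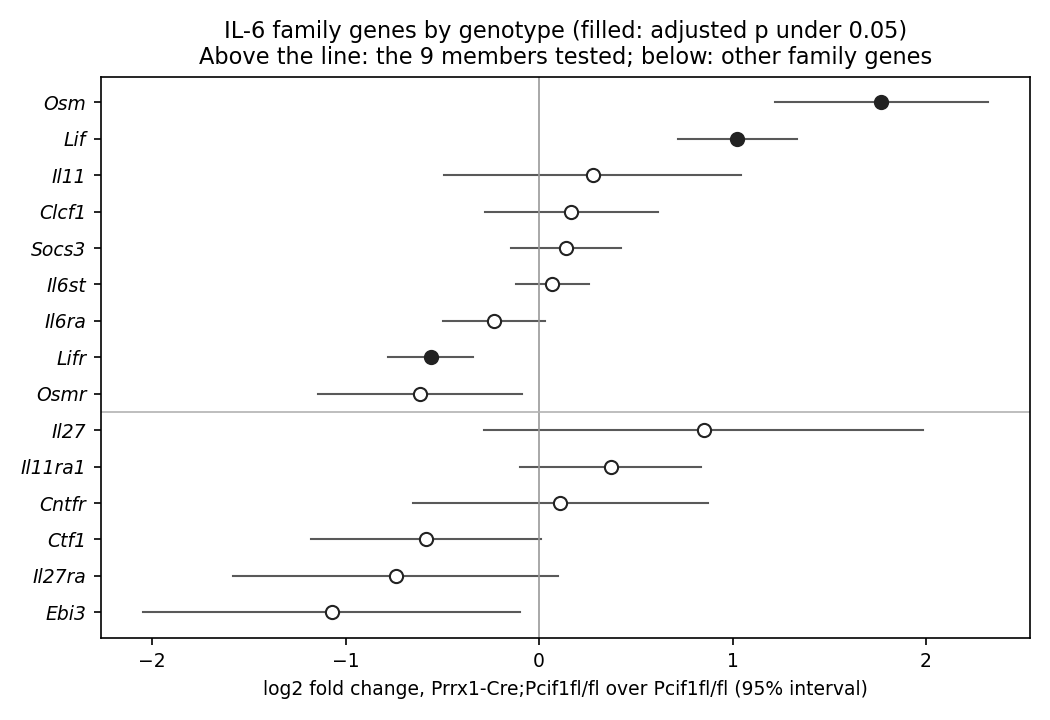
Log2 fold change of the 9 members tested and of 6 other family genes, knockout over control, with its 95% interval; filled points had an adjusted p under 0.05. Osm and Lif lie at 1.77 and 1.02 and Lifr at -0.56, and the intervals of Osmr and Ebi3 also leave out 0 although neither passed after adjustment over all genes.

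Levels of different genes were compared per kilobase of exons, in CPM per kilobase. In control cultures the order was Lifr at 41.0 ± 3.50 (SD, n = 3), Il6st at 33.2 ± 1.20, Socs3 at 24.0 ± 3.87, Il6ra at 12.9 ± 1.28 and Osmr at 10.02 ± 3.89. The ligands lay below, with Lif at 1.72 ± 0.162, Osm at 1.04 ± 0.265, Clcf1 at 0.912 ± 0.0431, Il11 at 0.249 ± 0.0522 and Il6 at 0.0677 ± 0.0184. Il6ra and Osmr, and Osm and Clcf1, are neighbours that did not differ beyond their spread. In knockout cultures, Il6st at 34.8 ± 1.16 lay above Lifr at 27.8 ± 1.14, which did not differ beyond its spread from Socs3 at 26.5 ± 0.631. Osm at 3.52 ± 0.725 and Lif at 3.50 ± 0.215 then had nearly the same level, and Clcf1 followed at 1.02 ± 0.197. Il6ra at 11.0 ± 1.22 lay above Osmr at 6.55 ± 0.289, and Il11 and Il6 were lowest, at 0.305 ± 0.0184 and 0.110 ± 0.0250.

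**Figure D3:**
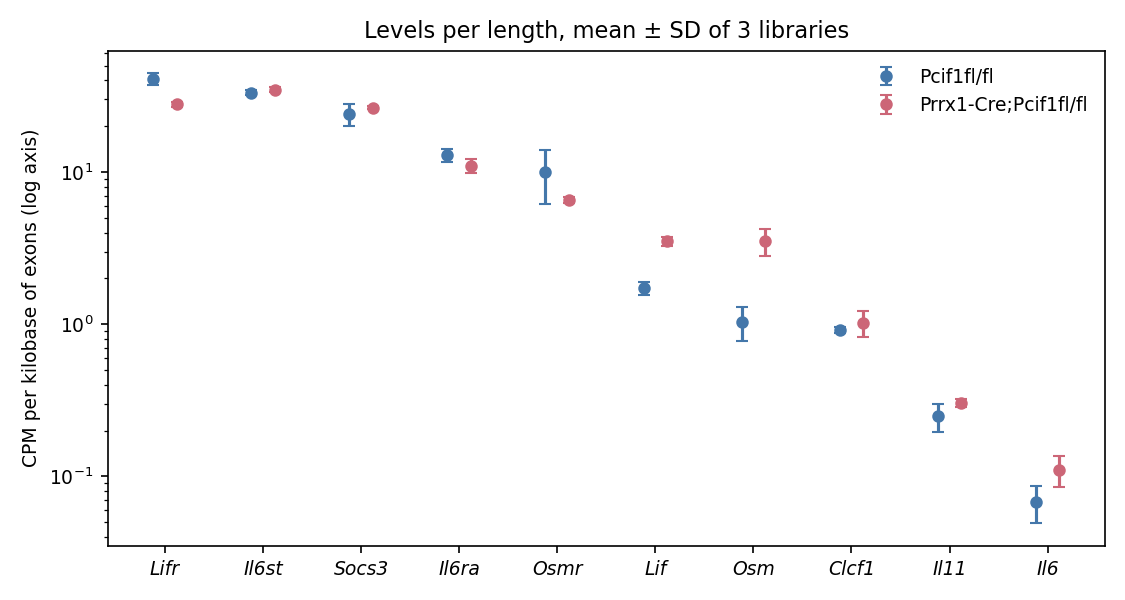
Mean level per kilobase of exons on a log axis, with the SD over 3 libraries, for the 10 members in the order of the control libraries. The receptor chains and Socs3 lie above the ligands in both genotypes, and on this measure Lifr passes from above Il6st to below it.

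Ratios within a library do not depend on how libraries are scaled. The ratio of Lifr to Il6st, per exon base, was 1.14, 1.27 and 1.29 in control and 0.773, 0.817 and 0.809 in knockout libraries. On this measure, LIF receptor RNA was above gp130 RNA in every control library and below it in every knockout library. That order rests on the lengths of all annotated exons, since the transcripts expressed were not determined. The lower ratio in knockout libraries does not depend on these lengths. The ratio of Osmr to Il6st was 0.231, 0.248 and 0.420 against 0.182, 0.178 and 0.206, and that of Osm to Lif was 0.757, 0.568 and 0.487 against 1.13, 1.05 and 0.824. The ratio of Il6ra to Il6st was 0.384, 0.365 and 0.414 against 0.286, 0.347 and 0.315, without overlap, although the Il6ra levels themselves overlapped. An exact two-sided permutation test gave p = 0.1 for each of these 4 ratios, the smallest value 3 libraries against 3 allow, and 0.15 after adjustment over 6 ratios. The ratio of Osmr to Lifr overlapped between the genotypes, at 0.194 to 0.326 and 0.218 to 0.254 (exact permutation p = 1), as did that of Socs3 to Il6st, at 0.583 to 0.851 and 0.728 to 0.812 (exact permutation p = 0.9).

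Of 10 other genes of the family described here, 9 were in the table and 6 were tested. With edgeR 0 of the 6 passed, as with DESeq2 and limma-voom, and 1, Ebi3, had a p under 0.05 before adjustment, as did 21.4% of all genes. Ebi3, a subunit of interleukin-27, was at 3.71, 3.42 and 10.5 CPM in control and 2.70, 2.84 and 2.89 CPM in knockout libraries. The high value again belonged to control replicate 3, the log2 fold change was -1.07 (adjusted p = 0.192), and it was -0.34 without that library. Antisense Gm16712 covers 23.4% of its exonic bases. The log2 fold changes of Ctf1 (cardiotrophin 1), Il27, Il27ra, Cntfr and Il11ra1, the receptor chain of IL-11, were -0.59, 0.85, -0.74, 0.11 and 0.37, and none passed with all 6 libraries, while Ctf1 passed without control replicate 3 (-0.74, adjusted p = 0.0378). Reads of Il11ra1 may be shared with its near-identical paralog. Cntf, Ctf2 and Il31ra were under the filter, with at most 4, 4 and 13 counts in a library, and 78.9% of the exonic bases of Cntf overlap Zfp91. The median log2 fold change of the 6 genes was -0.24.

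The relay from gp130 to the nucleus was described by 13 genes, all tested. With edgeR 0 of 13 passed, as with DESeq2 and limma-voom, and 2 of 13, the adaptor gene Gab1 and Stat5a, had a p under 0.05 before adjustment, against 7.40% and 21.4% of all genes. The median log2 fold change of the 13 genes was -0.10. The kinase genes Jak1, Jak2 and Tyk2 had log2 fold changes of -0.11, 0.083 and 0.11, and that of Stat3, the main effector, was -0.10 (standard error 0.092, adjusted p = 0.580). Stat3 was at 263 to 307 CPM in control and 256 to 264 CPM in knockout libraries. Of 14 genes for inhibitors of the relay other than Socs3, all tested, 1 passed, or 7.14%, close to the 7.40% of all genes, with a median of 0.096. Socs2, which restrains growth hormone and STAT5 signaling, rose from 7.12, 7.31 and 6.81 CPM to 14.4, 12.5 and 12.8 CPM, or 0.90 ± 0.13 (SE) on the log2 scale with an adjusted p of 0.00422. Without control replicate 3, 1 of the 13 relay genes and 4 of the 14 inhibitor genes passed, in a setting where 21.5% of all genes did.

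Genes that STAT3 is known to induce moved in both directions. Of 27 tested, 5 rose and 5 fell, or 37.0% against 7.40% of all genes, and their median log2 fold change was 0.021. Without control replicate 3, 11 rose and 9 fell, beside 21.5% of all genes that passed in that setting. Of those that rose, Egr1, Fos and Junb are early response genes that many other signals also induce. Egr1 was at 15.5, 16.9 and 34.9 CPM in control and 106, 66.2 and 116 CPM in knockout libraries, or 2.10 ± 0.33 (SE) on the log2 scale with an adjusted p of 0.00705. The log2 fold changes of Timp1, an X-linked inhibitor of metalloproteases, Ccnd1 (cyclin D1) and Junb were 1.19, 0.71 and 0.75. Of the exonic bases of Ccnd1, 23.4% overlap an antisense gene. Junb lost its call without knockout replicate 1 (log2 fold change 0.73, adjusted p = 0.0572) or 3 (0.74, 0.0538). The fifth of the genes that rose, Fos, which the naming rule leaves out, had a log2 fold change of 0.81 and lost its call without control replicate 1 or 2 or knockout replicate 1 or 3 (0.69 to 0.83, adjusted p from 0.0501 to 0.0996).

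The STAT3 targets that fell included the acute-phase genes Hp, the haptoglobin gene, and Lbp, which encodes a protein that binds lipopolysaccharide. Hp was at 393, 329 and 217 CPM in control and 55.1, 45.4 and 45.6 CPM in knockout libraries, or -2.68 ± 0.21 (SE) on the log2 scale with an adjusted p of 0.000259. Lbp fell by 2.10 and Steap4, a metalloreductase gene, by 1.92 on the log2 scale. Lcn2 (lipocalin 2) had 41, 24 and 36 counts in control and 0, 0 and 2 counts in knockout libraries (adjusted p = 0.00468). The fifth, outside the naming rule, was Serpina3n at -0.69, whose call was lost without control replicate 2 or knockout replicate 2 or 3 (-0.74 to -0.56, adjusted p from 0.0526 to 0.0613). Adipocyte markers also differed. Of the 5 in the table, 4 fell at an adjusted p under 0.05, Adipoq, Cidec, Pparg and Plin1, the last with 59 to 115 counts in control and 0 in knockout libraries. The other, Fabp4, was higher in every knockout library, at 103, 85.3 and 107 CPM against 70.6, 78.8 and 66.3 CPM (log2 fold change 0.46, adjusted p = 0.0545). The list together took 151 to 158 CPM in control and 96.8 to 117 CPM in knockout libraries, where nearly all of it was Fabp4. Their part in the results on these targets was not tested.

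**Figure D4:**
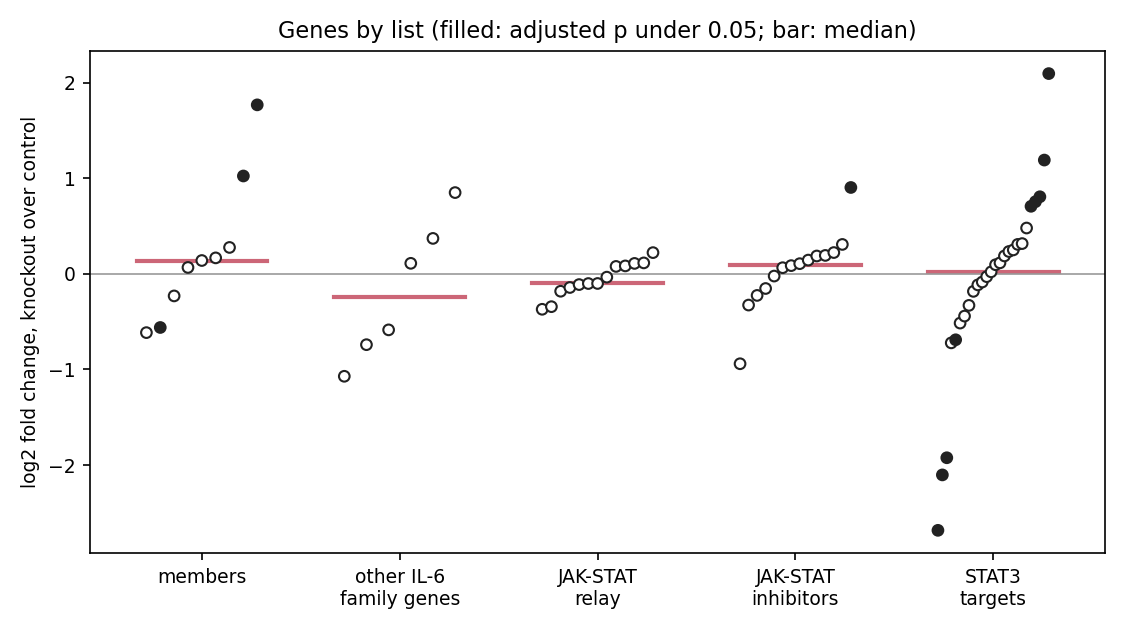
Log2 fold change of each gene tested, knockout over control, in the 5 lists; filled points had an adjusted p under 0.05 and bars are medians. Lcn2, with at most 2 counts in a knockout library, is counted in the median of its list and not drawn. None of the 13 relay points is filled, whereas the STAT3 targets hold filled points on both sides of 0.

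For each member that passed, the 3 genes with the most similar levels over the 6 libraries were taken by Pearson correlation of log2(CPM + 1), among 12636 genes. With 6 libraries in 2 groups, such values are high for many genes: 523 genes were above 0.9 with Lif, 451 with Osm and 748 with Lifr. The nearest to Lif were P4ha3, a collagen prolyl hydroxylase gene, Gfra1, a receptor gene for GDNF, and Slc15a3 (r from 0.996 to 0.998). The nearest to Osm were Lipg, an endothelial lipase gene, Fcgr1 and Dnajb6 (r from 0.993 to 0.996), and those nearest to Lifr were Appl2, Smarca1 and Rgs4 (r from 0.995 to 0.996).

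The differences of Osm and Lif held under all 14 alternative settings, with log2 fold changes from 1.66 to 1.99 for Osm and from 0.95 to 1.08 for Lif, and adjusted p-values of at most 0.0246 and 0.0221. That of Lifr lay between -0.62 and -0.50 and passed under 12 of the 14. That of Osmr lay between -0.78 and -0.25 and passed under 1.

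**Figure D5:**
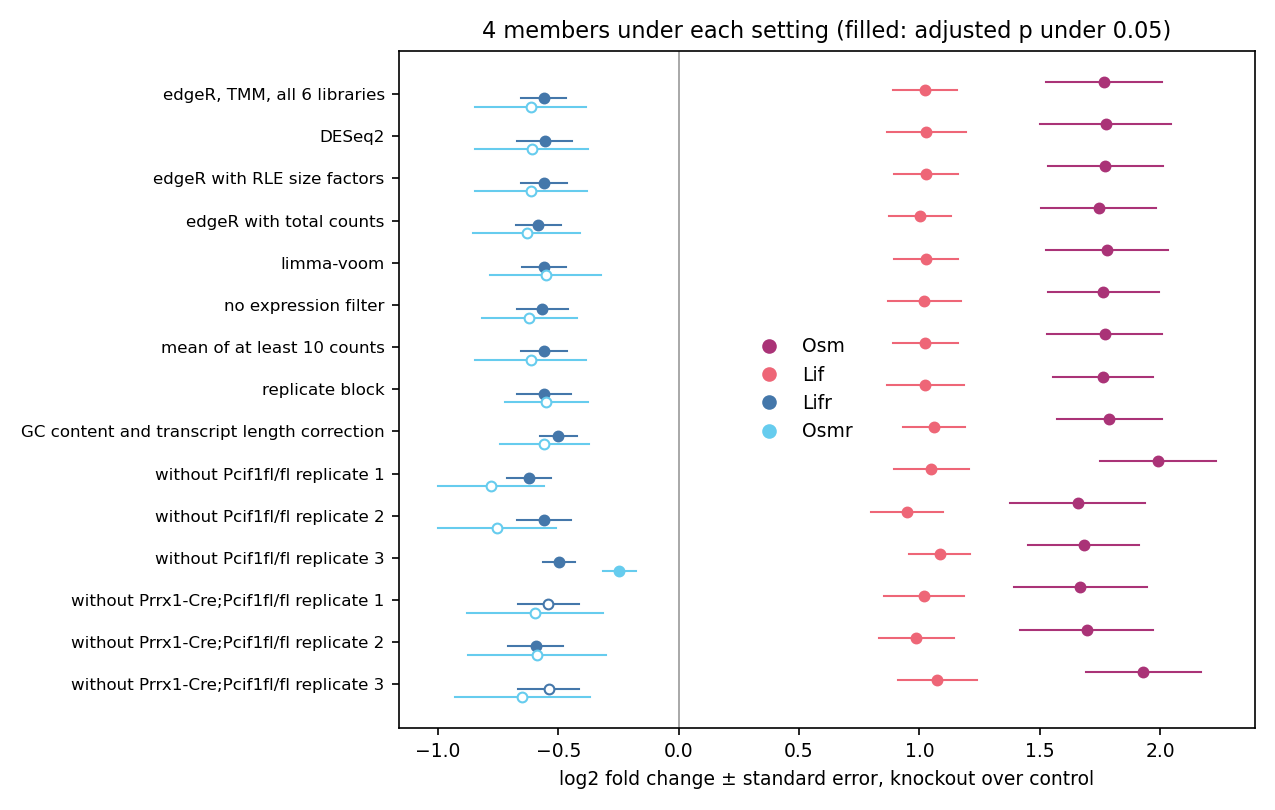
Log2 fold change, with its standard error, of Osm, Lif, Lifr and Osmr under each setting; filled points had an adjusted p under 0.05. Osm and Lif are filled in every setting, Lifr is open without knockout replicate 1 or 3, and Osmr is filled only without control replicate 3, where its log2 fold change is nearest to 0.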

How the data were processed

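Poly(A) RNA of 6 libraries was sequenced as paired reads. The authors deposited raw counts for each gene, made after mapping to mm10 with HISAT2. Which program counted the reads, on which gene models and whether by strand, is not given in the sources used here. Groups came from the sample labels, which hold 3 libraries per genotype where the deposited design text speaks of duplicates. Of 20163 rows, 92 repeat an Ensembl ID and were dropped. Counts were tested with edgeR 4.0.16 under R 4.3.3 (quasi-likelihood test, filterByExpr, TMM, no covariate), with Benjamini-Hochberg adjustment over all genes. A standard error is the size of the log2 fold change over the root of its F statistic. Positions, exon lengths and overlaps came from GENCODE M21 on GRCm38, which held 20059 of 20071 IDs, and promoters from RefSeq on GRCm38.p6. Named were the members, every other family gene (1 gene of that list is not reported here), Jak1, Jak2, Tyk2 and Stat3, up to 4 genes per direction and list with the smallest p among those that passed, and 3 nearest genes per member that passed. The members and lists, written by hand, were chosen with earlier results of these data known. Alternatives were DESeq2 1.42.0, limma 3.58.1 (voom), RLE or total-count scaling, no filter, a mean of at least 10 counts, a replicate block, a spline correction (5 degrees of freedom) for length and GC content of transcripts and leaving out each library. On simulated counts in which 200 genes had a log2 change of 2, edgeR called 192 of the 197 tested, with 11 false calls among 13597 genes. Chi-square values between libraries of 1 genotype were 90.1 and 106 per gene for the pairs with control replicate 3, and 2.86 to 10.5 for the others. All lay above sampling noise, which does not show whether libraries were separate mice or cultures. Each library was counted as 1 replicate.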

Additional observations from a re-analysis of the deposited data

How the results depend on the processing

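The number of members that passed was 3, and it stayed at 3 with DESeq2, limma-voom, both other scalings, both other filters, the GC and length correction and the replicate block. It was 2 when a 2-fold change was also required, and 2 to 4 when 1 library was left out. With that fold threshold, 0 inhibitor genes and 6 STAT3 targets passed, in place of 1 and 10. With DESeq2, 13 STAT3 targets passed (7 higher and 6 lower), where 9.01% of all genes did. With the GC and length correction, 12 passed (6 higher and 6 lower), where 9.44% of all genes did. Leaving out 1 library gave 0 to 1 other family genes, 0 to 1 relay genes, 1 to 4 inhibitor genes and 7 to 20 STAT3 targets. The highest value of each of these ranges came without control replicate 3, where 2991 of 13905 genes (21.5%) passed in place of 1016 of 13733 (7.40%). The lowest values, 2 members without knockout replicate 1 or 3 and 7 STAT3 targets without knockout replicate 3, came where 472 (3.38%, without replicate 1) and 477 (3.41%, without replicate 3) of all genes passed. Cntfr, at a mean under 1 CPM, reversed its direction without control replicate 1 (-0.012) or 2 (-0.016), and ranged up to 0.41 without replicate 3. The cause of these shifts was not tested.

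The replicate numbers were shared between genotypes in the labels, but the correlation of the deviations of same-numbered libraries from their group means was -0.055 to 0.070, and libraries did not all correlate best with their own number. The numbers were therefore not taken as pairs, and with the replicate block 3 members, 0 other family genes, 0 relay genes, 1 inhibitor gene and 10 STAT3 targets passed, as without it, while all genes that passed went from 1016 to 770. Counts of 3 to 16 in Il6 and Il11 limit what can be seen for both.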

Other observations

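The members that moved, together with Osmr, sit in 2 pairs of neighbouring genes, which was noticed after their values were seen. Osm and Lif lie 16530 bases apart on chromosome 11, on the same strand, and both rose. Of the 3 tested genes on either side of this pair, none passed: Sf3a1, Tbc1d10a and Castor1 had log2 fold changes of -0.14, 0.48 and 0.27, and Mtmr3, Ascc2 and Uqcr10 had 0.045, -0.086 and 0.16. Tbc1d10a and Castor1, on the Osm side, were higher, and Ascc2 lower, in all knockout libraries than in all control libraries. Their adjusted p-values from edgeR were 0.195, 0.413 and 0.603, and the genotypes did not overlap in 30.8% of all genes. Osmr and Lifr lie 215644 bases apart on chromosome 15, on opposite strands, and had log2 fold changes of -0.61 and -0.56, of which the second passed. Around them Gm2245, Gm7666 and Rictor had -0.40, 0.45 and 0.20, and Gdnf, Wdr70 and Nup155 had 0.014, -0.10 and -0.046, and none of these passed.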
